A study of Mus musculus with 18 samples.

Results

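The BCL2 family decides whether a cell releases the contents of its mitochondria and dies. BCL2, BCL-XL (gene Bcl2l1) and MCL1 keep the outer mitochondrial membrane closed, BAX and BAK open it, and the BH3-only proteins BIM (Bcl2l11), PUMA (Bbc3), NOXA (Pmaip1), BID and BAD carry death signals to both sides. In the thymus, BCL-XL is known to protect double-positive thymocytes. BCL2 is known to take over in cells that have passed positive selection, and BIM is needed to delete self-reactive cells.

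Of the family, 10 genes were taken as members by symbol (Bcl2, Bcl2l1, Mcl1, Bcl2l11, Bbc3, Pmaip1, Bax, Bak1, Bid and Bad), and every array probe annotated with one of these symbols was used. Of the 10, 9 had at least 1 probe (20 probes in all), and 8 had a probe that was detected often enough to be tested (16 probes), among 13689 genes tested on the array. Pmaip1 had 3 probes, none of them detected on any of the 18 arrays. No probe was annotated to Bax, which was not analysed here.

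RNA came from thymocytes at the double-positive stage (DP), which carry both coreceptors, and from the single-positive (SP) cells that keep either CD4 (CD4 SP) or CD8 (CD8 SP). The donors were wild-type mice (wt, C57Bl/6N) and conditional knockouts (cKO, labelled FoxN1-Gpr177 and also C57Bl/6N), both 4 to 6 weeks old. In the cKO, FoxN1-Cre deleted exon 3 of Gpr177, the gene for the WNT secretion factor now called Wls. The FoxN1 promoter drives Cre in the epithelium of the thymus. The thymocytes on the arrays were thus not the cells that lost the gene. Each of the 6 groups had 3 arrays, and 1 array of each group lay on each of 3 BeadChips. By the letters in the file headers, each group kept the same position on all 3 chips. The wt groups were at A to C and the cKO groups at D to F, so position and group cannot be told apart. The labels do not say whether the replicates came from separate animals, so p-values measure the spread between these samples only. With 3 arrays a group, that number limits the precision of every value.

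The sorted populations carried their defining transcripts. Cd4 averaged 7.69 (log2) in wt CD4 SP and 6.71 in wt CD8 SP, and Cd8b1 averaged 7.87 and 10.91. The summed linear level of 7 measured DP markers was 8382 to 9671 on DP arrays and 612 to 1047 on CD4 SP arrays. On CD8 SP arrays it was 3390 to 3947, between the other populations; there the recombinase gene Rag1 averaged 9.85 (log2, wt) against 11.88 in DP and 7.24 in CD4 SP, while Rag2 was detected on no SP array. Of 8 markers of SP maturation, 6 were measured, and their summed linear level was 226 to 360 on DP arrays. It was 2584 to 3240 on CD4 SP arrays and 1535 to 2016 on CD8 SP arrays. Array median intensity ran from 132.6 to 273.4, with the highest values in CD8 SP cKO (212.4 to 273.4). Summed markers of other cells were 216 to 469 for double-negative thymocytes (4 of 5 measured), 148 to 305 for macrophages and dendritic cells (4 of 10), 150 to 429 for B cells (3 of 7), 141 to 256 for erythroid cells (2 of 6) and 259 to 560 for thymic epithelium and stroma (5 of 9), and no neutrophil marker was measured. Some of these sums moved with the CD8 SP population in wt. Those of double-negative markers were 245 to 297 in wt DP, 224 to 272 in wt CD4 SP and 299 to 466 in wt CD8 SP, so CD8 SP lay above both. In wt CD8 SP 1 of the 4, Kit, was called higher than in wt DP (means 5.49 and 4.39, detected on 3 and 0 arrays; limma adjusted p = 0.0463). Erythroid sums were 141 to 159 in wt CD4 SP and 183 to 241 in wt CD8 SP, and epithelium and stroma sums were 259 to 336 in wt DP and 341 to 560 in wt CD8 SP. In cKO the sums overlapped. Those of double-negative markers were 216 to 469 in DP, 243 to 342 in CD4 SP and 226 to 427 in CD8 SP. Erythroid sums were 156 to 243 in cKO CD4 SP and 165 to 256 in cKO CD8 SP. Epithelium and stroma sums were 310 to 460 in cKO DP and 348 to 398 in cKO CD8 SP. Macrophage and dendritic cell sums were 199 to 245 in cKO DP and 215 to 257 in cKO CD8 SP. The part of these markers in the CD8 SP differences was not tested. Because each array measured a bulk population, fewer cells of a type and less RNA per cell cannot be told apart.

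The windows around the start sites of 4 members are shown because these genes carry the differences described below, or hold a match to a motif of a factor known to act on the family. The sequences are from RefSeq (GRCm38.p6), 5′ to 3′ on the gene's own strand, from 250 bases before to 50 after the start. Capitals mark TGTTTAC, a forkhead core of the kind FOXO factors bind, or TTCNNNGAA, the element STAT5 binds downstream of interleukin 7, on either strand. Bcl2 lies at chr1:106714241-106714540 (- strand), the first of 3 Bcl2l1 windows at chr2:152828440-152828739 (- strand), the first of 2 Bcl2l11 windows at chr2:128125788-128126087 (+ strand) and the second of 3 Bbc3 windows at chr7:16310011-16310310 (+ strand).
Bcl2: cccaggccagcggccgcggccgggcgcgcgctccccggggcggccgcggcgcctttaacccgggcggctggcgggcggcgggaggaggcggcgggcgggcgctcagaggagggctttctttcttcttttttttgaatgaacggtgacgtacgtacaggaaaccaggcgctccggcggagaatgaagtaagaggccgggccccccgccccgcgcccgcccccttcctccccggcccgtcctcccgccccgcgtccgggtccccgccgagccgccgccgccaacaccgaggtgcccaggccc
Bcl2l1: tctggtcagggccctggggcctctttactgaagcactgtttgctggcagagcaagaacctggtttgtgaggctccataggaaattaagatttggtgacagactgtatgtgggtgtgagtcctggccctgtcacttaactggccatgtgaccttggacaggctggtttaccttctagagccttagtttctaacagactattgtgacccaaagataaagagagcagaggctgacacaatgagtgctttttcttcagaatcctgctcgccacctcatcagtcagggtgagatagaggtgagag
Bcl2l11: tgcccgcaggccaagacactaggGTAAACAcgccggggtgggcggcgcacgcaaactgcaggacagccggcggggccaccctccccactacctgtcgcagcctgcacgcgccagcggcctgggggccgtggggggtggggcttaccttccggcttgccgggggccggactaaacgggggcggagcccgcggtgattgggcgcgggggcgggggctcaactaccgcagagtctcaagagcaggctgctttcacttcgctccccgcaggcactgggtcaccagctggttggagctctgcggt
Bbc3: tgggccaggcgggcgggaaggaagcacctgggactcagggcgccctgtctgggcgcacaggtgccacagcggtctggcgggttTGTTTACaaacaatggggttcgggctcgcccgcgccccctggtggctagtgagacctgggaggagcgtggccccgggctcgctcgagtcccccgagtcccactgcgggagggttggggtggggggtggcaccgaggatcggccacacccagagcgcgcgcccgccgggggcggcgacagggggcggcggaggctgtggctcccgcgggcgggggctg

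The search left out Pmaip1. For the other 9 members, Bax among them, RefSeq gave 15 such windows. TGTTTAC or its complement occurred in 2 of the 15, those of Bcl2l11 and Bbc3 above, where the first base of the match stood at position -227 and -167 from the start. Across the genome, with a chromosome left out of the search, it occurred in 3.65% of 32851 windows of the same length. TTCNNNGAA occurred in 0 of 15 (8.3% of all windows). CANNTG, the E-box core, occurred in 10 of 15 (72.3% of all). The 3 motifs were searched on both strands, and their matches may overlap each other. A match says only that these letters are present, and its absence draws nothing about the factor. The Bcl2 window held 76.0% G and C, against a median of 52.7% over all windows. The Bcl2l1 window shown held 49.3%, and the other Bcl2l1 windows held 55.7% and 52.3%.

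Among the survival genes, Bcl2 and Bcl2l1 moved in opposite directions between DP and CD4 SP cells, in wt and in cKO mice alike. In wt mice Bcl2 was 3.22-fold higher in CD4 SP than in DP, and Bcl2l1 was 2.89-fold lower. Mcl1 did not pass the test in any comparison. Levels below are log2 intensities after background correction and quantile normalization, given in the order of chips 1, 2 and 3, and a call means a limma adjusted p under 0.05 over all 26676 tested probes.

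For Bcl2, the brightest probe (ILMN_2682162) read 7.84, 7.54 and 7.48 in wt DP. It read 9.28, 9.59 and 9.06 in wt CD4 SP and 8.16, 8.56 and 8.68 in wt CD8 SP. The lowest CD4 SP array lay above the highest array of the other populations, and CD8 SP lay between. In cKO the readings were 8.07, 7.99 and 8.05 in DP, 9.82, 9.39 and 9.42 in CD4 SP, and 8.20, 8.79 and 7.88 in CD8 SP. There CD4 SP again stood above both others, but DP and CD8 SP overlapped. CD4 SP exceeded DP by 1.69 ± 0.26 (log2 difference ± SE, n = 3 against 3; limma adjusted p = 0.000466) in wt and by 1.50 ± 0.26 (limma adjusted p = 0.0015) in cKO. CD8 SP exceeded DP by 0.85 ± 0.26 in wt, just short of the threshold (limma adjusted p = 0.0536), and by 0.25 ± 0.26 in cKO (limma adjusted p = 0.727).

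The other Bcl2 probe (ILMN_1249021), annotated to a different RefSeq transcript record of the gene, gave wider steps. It read 5.46, 6.23 and 5.51 in wt DP, 9.01, 9.35 and 9.03 in wt CD4 SP, and 8.63, 8.57 and 8.64 in wt CD8 SP. The cKO readings were 5.16, 5.10 and 5.62 in DP, with detection on 2 of 3 arrays, then 9.16, 9.31 and 9.15 in CD4 SP and 9.11, 8.43 and 8.16 in CD8 SP. On this probe both SP populations stood clear of DP in both genotypes. It put CD4 SP above DP by 3.40 ± 0.27 in wt and 3.91 ± 0.27 in cKO (limma adjusted p = 3.75e-07 and 8.71e-08). It put CD8 SP above DP by 2.88 ± 0.27 and 3.27 ± 0.27 (limma adjusted p = 6.41e-06 and 1.83e-06). The 2 probes of Bcl2 therefore gave the same direction in CD4 SP but disagreed on the size of the step, and on whether CD8 SP passed the test.

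**Figure D1:**
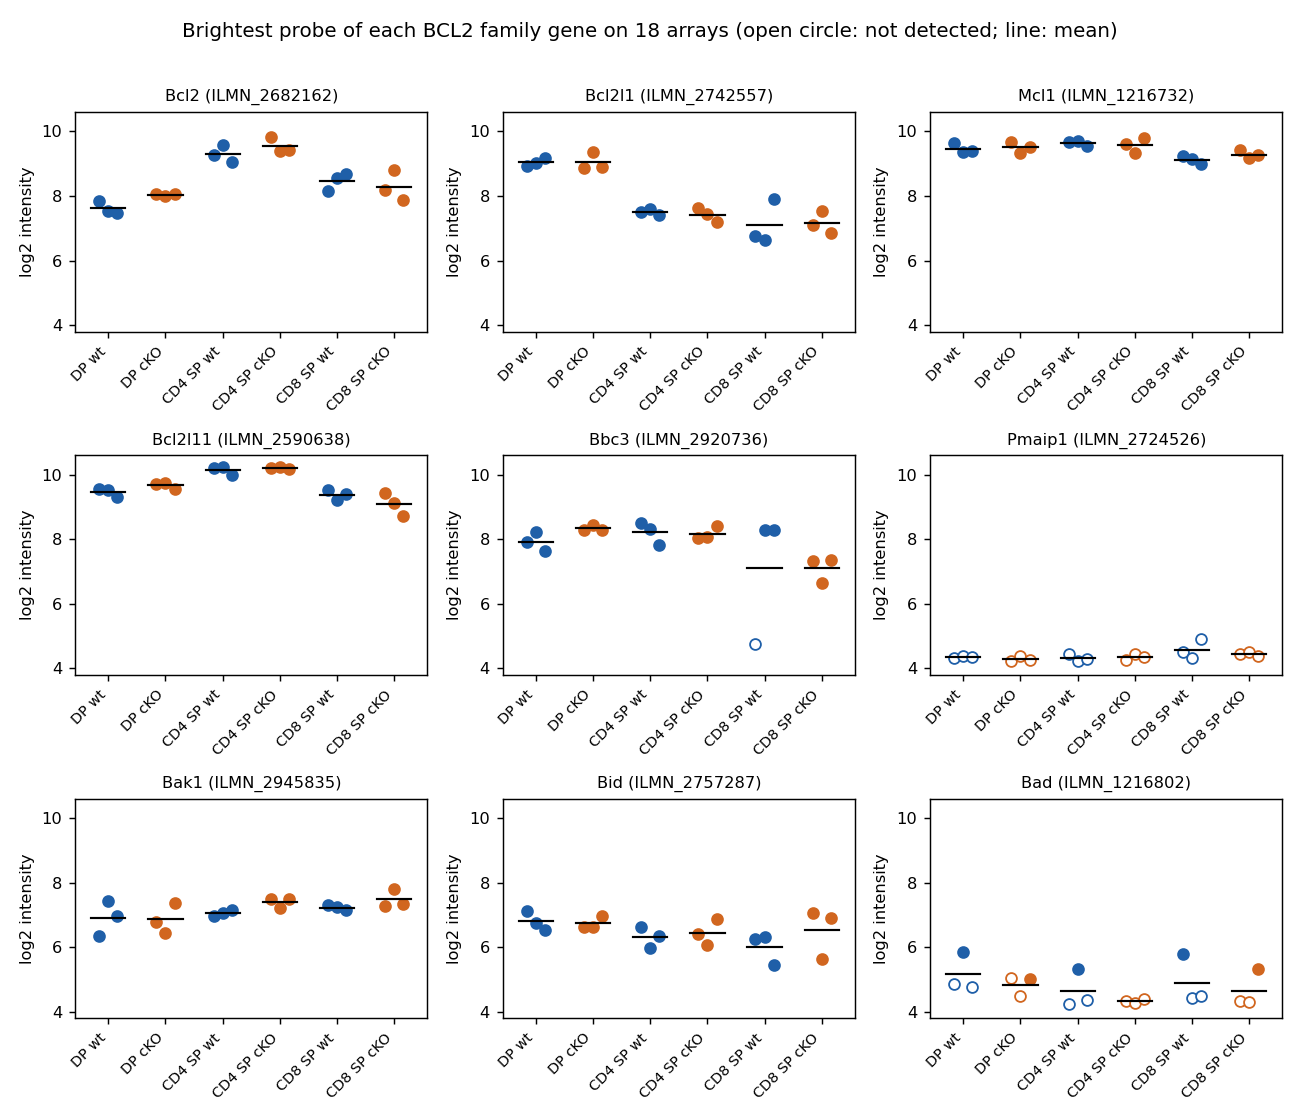
Log2 intensity (vertical axes) of the brightest probe of each of 9 BCL2 family genes on each of 18 arrays, by group (horizontal axes; blue wt, orange cKO), with open circles for arrays without detection and a line at each group mean. Bcl2 is highest in CD4 SP, Bcl2l1 is highest in DP, and Pmaip1 is not detected on any array.

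Bcl2l1, the gene of BCL-XL, ran the other way. Its brightest probe (ILMN_2742557) read 8.93, 9.01 and 9.17 in wt DP, 7.52, 7.60 and 7.41 in wt CD4 SP, and 6.77, 6.63 and 7.91 in wt CD8 SP. In cKO it read 8.87, 9.37 and 8.88 in DP, 7.63, 7.43 and 7.19 in CD4 SP, and 7.09, 7.53 and 6.85 in CD8 SP. Every DP array lay above every SP array, while CD4 SP and CD8 SP overlapped in both genotypes. Bcl2l1 fell by 1.53 ± 0.30 on the log2 scale from DP to CD4 SP in wt (limma adjusted p = 0.00406) and by 1.62 ± 0.30 in cKO (limma adjusted p = 0.00289). From DP to CD8 SP it fell by 1.93 ± 0.30 in wt (limma adjusted p = 0.000748) and by 1.89 ± 0.30 in cKO (limma adjusted p = 0.000972). The difference between CD4 SP and CD8 SP was 0.40 ± 0.30 in wt and 0.26 ± 0.30 in cKO, and neither passed the test (limma adjusted p = 0.589 and 0.811).

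The other 2 Bcl2l1 probes gave the same calls with wider steps. Probe ILMN_2647885 averaged 8.78 in wt DP, 6.53 in wt CD4 SP and 5.90 in wt CD8 SP, differences of -2.24 ± 0.50 and -2.87 ± 0.50 from DP (limma adjusted p = 0.00927 and 0.00157). Probe ILMN_2698430 averaged 8.33, 5.81 and 5.42 in the same order, differences of -2.52 ± 0.63 and -2.91 ± 0.63 (limma adjusted p = 0.0202 and 0.00775). Its readings scattered from 4.43 to 7.55 in wt CD4 SP, where it was detected on 2 of 3 arrays. In cKO the differences from DP were -2.83 ± 0.50 and -2.79 ± 0.50 on the former probe and -2.88 ± 0.63 and -3.34 ± 0.63 on the latter, all called. The latter was detected on 2 of 3 cKO CD4 SP arrays and 1 of 3 cKO CD8 SP arrays, so the sizes of its differences rest partly on readings at background.

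Mcl1 encodes a short-lived survival protein that thymocytes need at several stages. Its single probe (ILMN_1216732) read 9.64, 9.37 and 9.39 in wt DP, 9.68, 9.71 and 9.55 in wt CD4 SP, and 9.23, 9.16 and 8.98 in wt CD8 SP. The cKO readings were 9.67, 9.34 and 9.52 in DP, 9.62, 9.33 and 9.79 in CD4 SP, and 9.42, 9.17 and 9.26 in CD8 SP. The 18 readings kept within 1 log2 unit, and DP and CD4 SP overlapped in both genotypes. CD4 SP minus CD8 SP was 0.52 ± 0.21 in wt (95% interval 0.08 to 0.97; limma adjusted p = 0.218), where every CD4 SP array was above every CD8 SP array. CD4 SP minus DP was 0.18 ± 0.21 in wt (-0.26 to 0.62; limma adjusted p = 0.745). CD8 SP minus DP was -0.34 ± 0.21 in wt (limma adjusted p = 0.356), where every CD8 SP array was below every DP array. Among 29 alternative ways of processing (below), 2 called the wt CD4 SP minus CD8 SP difference of Mcl1. These were the authors' values and a trended robust variance.

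Across the 8 tested genes, 2 were called between wt CD4 SP and wt DP (Bcl2 higher, Bcl2l1 lower), where 6.22% of all genes were called. Between wt CD8 SP and wt DP 1 was called (Bcl2l1 lower), with 7.72% of all genes called. Between wt CD4 SP and wt CD8 SP limma called 0, and 3.54% of all genes were called. There 3 of the 8 had an unadjusted p under 0.05, as had 4150 of all 26676 tested probes. In cKO the counts were 2 of 8 for CD4 SP against DP (5.18% of all genes), 1 of 8 for CD8 SP against DP (6.88%) and 2 of 8 for CD4 SP against CD8 SP (4.07%). The same 2 genes, Bcl2 and Bcl2l1, were called between CD4 SP and DP in both genotypes, on separate arrays. The median log2 difference over the 8 genes was 0.17 for wt CD4 SP minus DP and -0.30 for wt CD8 SP minus DP, beside 0.06 and 0.14 over all genes.

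Bcl2l11, which encodes BIM, was higher in CD4 SP than in CD8 SP cells of cKO mice. Its brightest probe (ILMN_2590638) read 9.56, 9.53 and 9.32 in wt DP, 10.22 on chips 1 and 2 and just above 10 on chip 3 in wt CD4 SP, and 9.52, 9.21 and 9.41 in wt CD8 SP. In cKO it read 9.72, 9.75 and 9.54 in DP, 10.20, 10.22 and 10.16 in CD4 SP, and 9.43, 9.13 and 8.71 in CD8 SP. CD4 SP had the 3 highest arrays in each genotype. Bcl2l11 was higher in CD4 SP than in CD8 SP by 1.11 ± 0.22 in cKO (limma adjusted p = 0.00728), a 2.15-fold difference. In wt the same difference was 0.77 ± 0.22 and missed the threshold (limma adjusted p = 0.0687). CD4 SP minus DP was 0.67 ± 0.22 in wt and 0.53 ± 0.22 in cKO (limma adjusted p = 0.0901 and 0.25), on every chip above 0.

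A further Bcl2l11 probe (ILMN_3157568) read 8.72, 8.64 and 8.67 in cKO CD4 SP and 7.03, 6.47 and 7.23 in cKO CD8 SP. The difference of 1.76 ± 0.29 was called (limma adjusted p = 0.00166), as was the difference of 1.23 ± 0.29 between cKO CD4 SP and cKO DP (limma adjusted p = 0.0182). Its wt differences were 0.82 ± 0.29 against CD8 SP and 0.78 ± 0.29 against DP, neither called (limma adjusted p = 0.153 and 0.15). The third probe (ILMN_1229255) gave no call, with CD4 SP minus CD8 SP at 1.34 ± 0.45 in wt and 0.15 ± 0.45 in cKO. The fourth (ILMN_3078327) was detected on no array. For Bcl2 as well, CD4 SP exceeded CD8 SP by 1.25 ± 0.26 in cKO (limma adjusted p = 0.00984) and by 0.84 ± 0.26 in wt (limma adjusted p = 0.0982). On the other Bcl2 probe the cKO difference was 0.64 ± 0.27 and was not called (limma adjusted p = 0.272). The cKO calls of Bcl2 and Bcl2l11 between CD4 SP and CD8 SP were both lost when only the groups compared were fitted (limma adjusted p = 0.137 and 0.134) and under median scaling (limma adjusted p = 0.0848 and 0.142). The Bcl2 call was also lost without CD4 SP cKO replicate 1 (limma adjusted p = 0.0566) or without CD8 SP cKO replicate 3 (limma adjusted p = 0.0563). Whether the population differences differed by genotype was tested by the interaction, which limma did not call for any member.

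**Figure D2:**
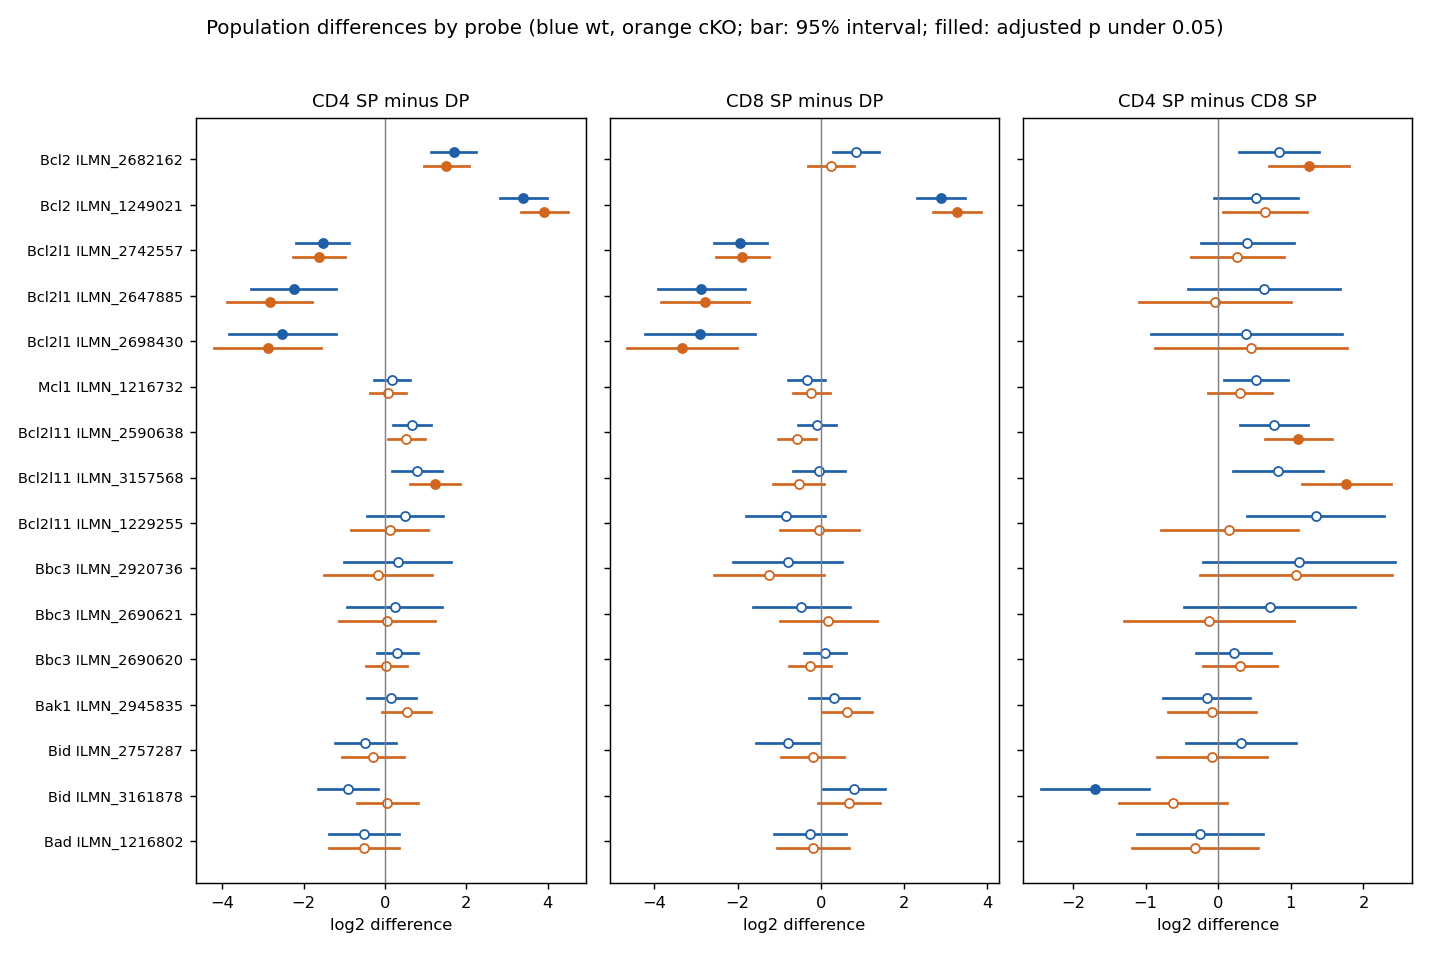
Log2 differences between populations (horizontal axes) for the 16 tested member probes (rows) in wt (blue) and cKO (orange), with 95% intervals as bars and filled points for a limma adjusted p under 0.05. All 3 Bcl2l1 probes lie below 0 in both SP populations against DP, and both Bcl2 probes lie above 0 in CD4 SP against DP.

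Bbc3, which encodes PUMA, a BH3-only protein best known as a p53 target, gave no call. Its brightest probe (ILMN_2920736) read 7.91, 8.21 and 7.62 in wt DP, 8.52, 8.32 and 7.82 in wt CD4 SP, and 4.76, 8.30 and 8.27 in wt CD8 SP, where the reading of 4.76 was not a detection. In cKO it read 8.29, 8.45 and 8.29 in DP, 8.04, 8.06 and 8.41 in CD4 SP, and 7.32, 6.65 and 7.34 in CD8 SP. All 3 cKO CD8 SP arrays lay below all other cKO arrays, while the wt CD8 SP arrays ran from 4.76 to 8.30. CD8 SP minus DP was -1.24 ± 0.63 in cKO (95% interval -2.56 to 0.08; limma adjusted p = 0.32). Without CD8 SP wt replicate 1, the array with that reading, the same Bbc3 difference was -1.23 and was called (limma adjusted p = 0.00859), and cKO CD4 SP minus cKO CD8 SP was 1.06 and was called too (limma adjusted p = 0.0338). The other 2 Bbc3 probes put cKO CD8 SP minus cKO DP at 0.18 ± 0.56 and -0.26 ± 0.24, so the 3 probes did not point one way.

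Bid encodes the BH3-only protein that caspase 8 cuts to link death receptors to mitochondria. Its brighter probe (ILMN_2757287) ranged from 5.44 to 7.11 over the 18 arrays and gave no call, with wt CD8 SP minus DP at -0.79 ± 0.36 (limma adjusted p = 0.2). Its dimmer probe (ILMN_3161878) read 5.99, 5.94 and 6.64 in wt CD8 SP and was detected on 0 of 3 wt CD4 SP arrays. On that probe Bid was higher in wt CD8 SP than in wt CD4 SP (means 6.19 and 4.49). The fitted CD4 SP minus CD8 SP difference was -1.70 ± 0.35 (limma adjusted p = 0.0109). With each undetected array set at the lowest signal detected on that array, the difference in means was 2.46-fold. That figure takes no account of the spread between arrays. In cKO the same probe gave -0.62 ± 0.35, which was not called (limma adjusted p = 0.468). The brighter probe put wt CD4 SP minus wt CD8 SP at 0.32 ± 0.36, so the 2 Bid probes did not point the same way in wt.

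Bad, a BH3-only gene known to answer growth factor signals, was near the limit of detection. Its probe (ILMN_1216802) was detected on 5 of 18 arrays, 1 in each group except CD4 SP cKO, with readings from 4.23 to 5.85. Bak1, a pore-forming effector, was detected on all 18 arrays (ILMN_2945835). It read from 6.34 to 7.42 in wt DP with a median of 6.97, from 6.98 to 7.15 in wt CD4 SP and from 7.14 to 7.30 in wt CD8 SP. Bak1 gave no call, and its widest population difference was cKO CD8 SP minus cKO DP, 0.62 ± 0.29 (limma adjusted p = 0.265). The 3 Pmaip1 probes read between 4.17 and 4.90 and were not above background in any group, which gives no level for NOXA transcripts.

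Between cKO and wt no member passed the test in any population. limma called 0 of 8 in DP, CD4 SP and CD8 SP and over the mean of the 3 populations, where 0% of all genes were called. On the brightest probe of each gene, 0 of 8 had an unadjusted p under 0.05, though dimmer probes of Bcl2l11 and Bbc3 did (below). The 95% intervals bound each difference. For Bcl2 in DP, the readings of 8.07, 7.99 and 8.05 in cKO all lay above the 7.84, 7.54 and 7.48 of wt, a difference of 0.42 ± 0.26 (95% interval -0.13 to 0.97; limma adjusted p = 0.694). The other Bcl2 probe pointed the other way in DP, at -0.44 ± 0.27 (-1.02 to 0.14). Bcl2l1 differed by 0.00 ± 0.30 in DP (-0.64 to 0.64). In the SP cells its difference was -0.09 ± 0.30 (CD4 SP) and 0.05 ± 0.30 (CD8 SP). Mcl1 differed by 0.04 ± 0.21 in DP (-0.40 to 0.49). In the SP cells it was -0.07 ± 0.21 (CD4 SP) and 0.16 ± 0.21 (CD8 SP).

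No death gene was called between genotypes either. Bcl2l11 in cKO minus wt on the brightest probe was 0.20 ± 0.22 in DP. It was 0.05 ± 0.22 among CD4 SP and -0.29 ± 0.22 among CD8 SP cells. Its probe ILMN_3157568 read 7.03, 6.47 and 7.23 in cKO CD8 SP against 8.02, 7.88 and 7.31 in wt CD8 SP. Those arrays did not overlap, and the difference of -0.82 ± 0.29 had an unadjusted p of 0.0118 but an adjusted p of 1 in limma. For Bbc3 in DP, cKO minus wt was above 0 on all 3 chips on 2 of its 3 probes, at 0.43 ± 0.63 on the brightest and 0.48 ± 0.24 on ILMN_2690620, with limma adjusted p = 0.9 and 0.61. Bbc3 probe ILMN_2690621 differed by 1.24 ± 0.56 in CD8 SP (limma unadjusted p = 0.0394), not called. By chip it was 0.43, 3.16 and 0.13, and wt replicate 2 read 4.80 without detection. The other Bbc3 probes gave -0.0045 ± 0.63 and 0.12 ± 0.24 there. Over the mean of the 3 populations ILMN_2690621 differed by 0.74 ± 0.32 (limma unadjusted p = 0.033, adjusted p = 0.388). Bak1 differed by 0.33 ± 0.29 in CD4 SP without overlap (limma adjusted p = 0.839). Bid differed by 0.53 ± 0.36 in CD8 SP on its brighter probe, where the arrays of the genotypes overlapped. Its dimmer probe pointed the other way there, at -0.69 ± 0.35 without overlap, and neither was called. The genotype by population interaction called 0 of 8 members (0% of all genes, smallest adjusted p among them 0.999731, 0 with an unadjusted p under 0.05).

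**Figure D3:**
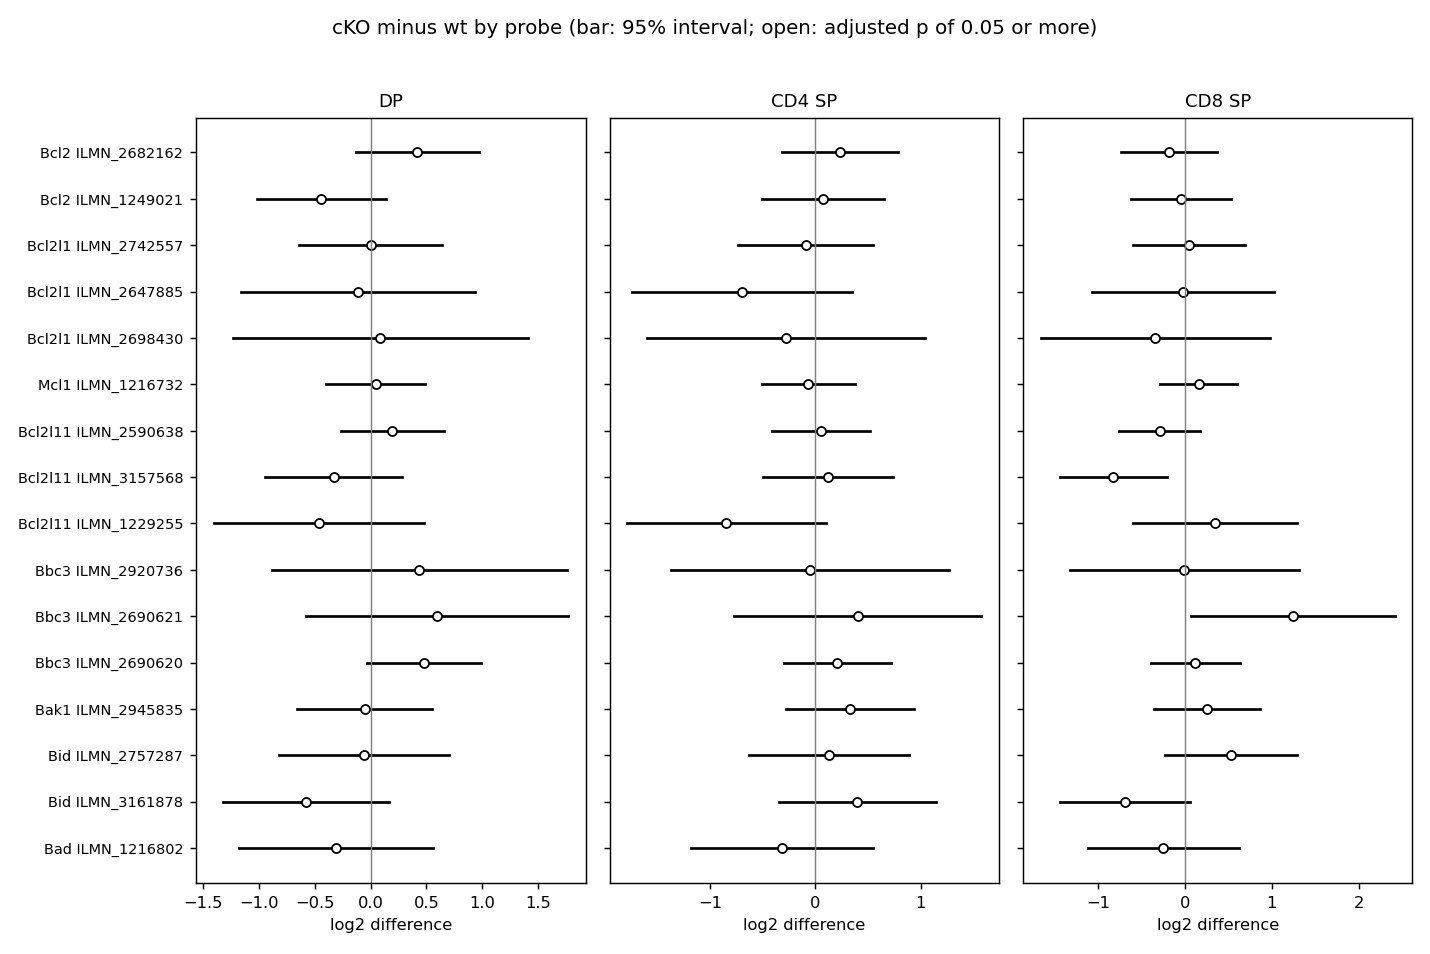
Log2 difference cKO minus wt (horizontal axes) for the 16 tested member probes (rows) in DP, CD4 SP and CD8 SP, with 95% intervals as bars. No probe is filled, and the widest bars belong to Bbc3 and to the dimmer Bcl2l1 probe.

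Other family genes were read from a list of 16, of which 8 were measured. Bcl2a1d and Bcl2a1b, which encode the survival protein A1, were higher in SP than in DP cells, except Bcl2a1b in cKO CD8 SP, which missed the threshold (limma adjusted p = 0.161). Bcl2a1d averaged 6.17 in wt DP, 9.39 in wt CD4 SP and 8.01 in wt CD8 SP, and differed from DP by 3.22 ± 0.28 and 1.84 ± 0.28 (limma adjusted p = 1.15e-06 and 0.00065). Bcl2a1d was also higher in CD4 SP than in CD8 SP, by 1.38 ± 0.28 in wt and 1.36 ± 0.28 in cKO (limma adjusted p = 0.01 and 0.00984). Bcl2a1b was higher than in DP by 2.91 ± 0.35 in wt CD4 SP and 1.79 ± 0.35 in wt CD8 SP (limma adjusted p = 4.07e-05 and 0.00409). The third measured A1 gene, Bcl2a1c, gave no call, with differences from DP of -0.17 in wt CD4 SP, 0.17 in wt CD8 SP, -0.22 in cKO CD4 SP and -0.01 in cKO CD8 SP. The A1 genes are near-identical copies, so which copy a probe reads is uncertain. The called counts were 2 higher and 0 lower of 8 for wt CD4 SP and for wt CD8 SP against DP, and 2 and 1 higher in cKO. Of all genes, 6.22% and 7.72% were called in wt, and 5.18% and 6.88% in cKO, in either direction. All the genes counted were A1 copies, so they may not be separate signals. Bmf, a BH3-only gene, averaged 4.79 in wt CD4 SP and 5.78 in wt DP and was not called (limma adjusted p = 0.243).

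Of 15 genes that act after the family (apoptosome, caspases, mitochondrial proteins and their inhibitors), 11 were measured. Between populations limma called 1 of them in 1 comparison, Cycs (cytochrome c), which averaged 8.47 in cKO CD8 SP and 7.21 in cKO DP, 1.26 ± 0.25 higher (limma adjusted p = 0.0049). In wt the Cycs difference was 0.74 and missed the threshold (limma adjusted p = 0.0848). For wt CD4 SP and wt CD8 SP against DP the counts were 0 of 11, with 2 and 3 genes at an unadjusted p under 0.05. Of all genes, 6.22% and 7.72% were called there, and 6.88% between cKO CD8 SP and cKO DP. In the 2 wt comparisons, 4674 and 5972 of all 26676 tested probes had an unadjusted p under 0.05.

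Of 14 known regulators of the members, 11 were measured. Il7r, the interleukin 7 receptor chain whose signal maintains BCL2, averaged 9.66 in wt CD4 SP, 8.15 in wt CD8 SP and 4.94 in wt DP, where it was detected on 1 of 3 arrays. The fitted differences were 4.72 ± 0.27 and 3.20 ± 0.27 (limma adjusted p = 9.87e-09 and 1.87e-06), with the DP mean mostly from readings at background. In cKO, Il7r averaged 9.52 in CD4 SP and 7.57 in CD8 SP and was detected on no DP array. Foxo1, a forkhead factor, was higher in CD4 SP than in DP by 2.16 ± 0.45 in wt and 2.40 ± 0.45 in cKO (limma adjusted p = 0.00589 and 0.00291). In DP, Foxo1 was detected on 2 of 3 wt arrays and 1 of 3 cKO arrays, so the sizes of its differences are not well fixed. Egr1, induced by T cell receptor signals, was higher in CD4 SP than in DP by 0.98 ± 0.23 in wt and 0.88 ± 0.23 in cKO (limma adjusted p = 0.0132 and 0.033), and higher than in CD8 SP by 1.10 ± 0.23 and 1.23 ± 0.23 (limma adjusted p = 0.0112 and 0.00433). Stat5a averaged 9.29 in wt DP and 9.19 in wt CD4 SP and was not called (limma adjusted p = 0.868). In these 3 lists limma called no gene between cKO and wt in any population or over their mean, with at most 1 gene of a list at an unadjusted p under 0.05.

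**Figure D4:**
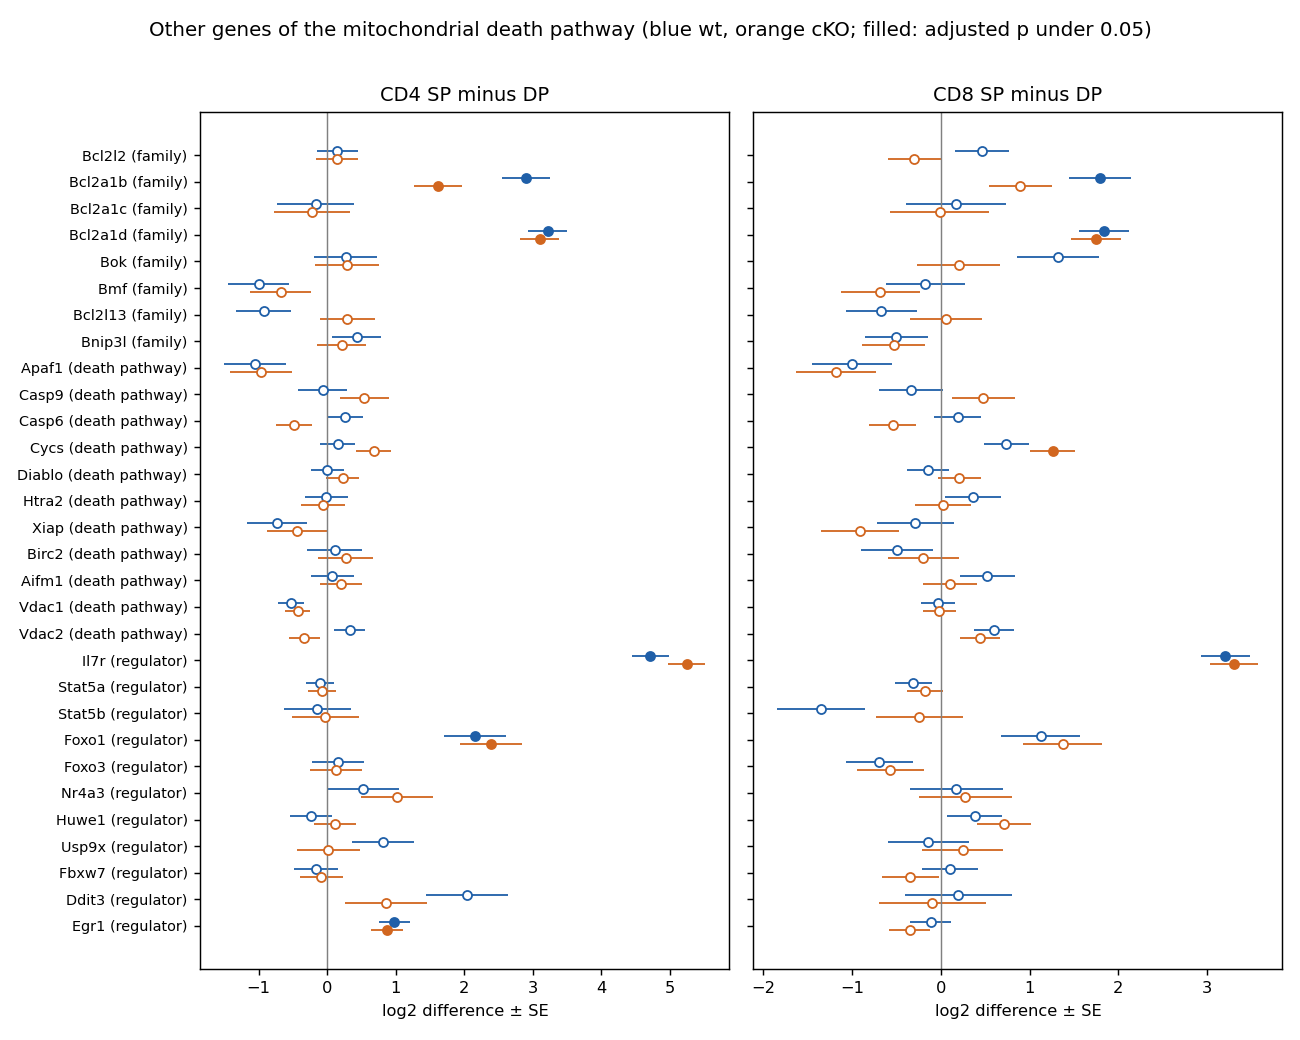
Log2 difference from DP (horizontal axes, ± SE) of the measured genes of 3 pathway lists (rows) in CD4 SP and CD8 SP, wt in blue and cKO in orange, filled where the limma adjusted p was under 0.05. Il7r, Bcl2a1d, Bcl2a1b, Foxo1 and Egr1 stand to the right of 0 in CD4 SP, and the cKO points of Il7r compare against a DP group with no detection.

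The genes whose levels ran most like those of the survival genes were found by Pearson's correlation over the 18 arrays, among 11674 named genes. For Bcl2 they were H2-T23 (r = 0.951), Ugcg (0.935) and Tes (0.935). For Bcl2l1 they were Znrf1 (0.931), Tctex1d1 (0.931) and Sla (0.931), and for Mcl1 they were Map3k1 (0.886), Lcp2 (0.885) and Fnbp1 (0.850). These values describe a shared pattern over 6 groups on shared arrays. How much of each value came from differences between populations was not tested.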

How the data were processed

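Per the labels, total RNA (200 ng) of sorted mouse thymocytes was labelled with biotin and hybridized to Illumina mouse BeadChips, 18 arrays in 6 groups of 3. The deposited bead file held, for each probe on each array, a linear mean intensity without background subtraction and a deposited detection p-value. How that p-value was computed is not stated in the labels. The series matrix held linear intensities that the authors had normalized, by a procedure the labels do not state, with array medians of 192.0 to 202.2. It served only as an alternative.

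In limma 3.58.1 (R 4.3.3) the neqc function (offset 16) used the detection p-values to correct background, then quantile normalized the intensities and took log2. A probe was tested if its detection p-value was under 0.05 on 3 arrays or more, which held for 26676 of 46237. Gene symbols came from the array's annotation (1 symbol for 35784, none for 10453), with 1424 old symbols updated through RefSeq. A gene stood for its brightest tested probe, and other probes are given beside it. All 18 arrays entered one linear model with 6 group means (12 residual degrees of freedom), with moderated t-tests, a moderated F-test for the interaction, and Benjamini-Hochberg adjustment over all tested probes at 0.05. Intervals are limma's unadjusted 95% intervals. The script was tested on simulated data. Figures used matplotlib 3.10.9.

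The members, the lists and the motifs were chosen with earlier results of these data known. Named genes were all members, at most the 4 called genes with the smallest p per list and comparison, Bmf and Stat5a as examples without a call, chosen after their values were seen, and the 3 genes most like Bcl2, Bcl2l1 and Mcl1. Per the file headers, arrays that share a replicate number in the labels lay on the same BeadChip (3 chips, all 6 groups on each). Residuals of arrays sharing a number correlated with a median of 0.0463 (-0.149 to 0.314, 45 pairs). Alternatives changed the background correction, scaling, filter, probe choice, source of values, variance model, block, covariate and arrays.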

Additional observations from a re-analysis of the deposited data

Results flagged for a closer look

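Bcl2l11 gave genotype differences of opposite sign in DP and CD8 SP on all 3 chips. In DP cKO minus wt was 0.1958 on the log2 scale (0.16, 0.21 and 0.22 by chip), and in CD8 SP it was -0.2887 (-0.09, -0.08 and -0.70 by chip). The difference between them was covered by the limma interaction test over the 3 populations, which did not call it (unadjusted p = 0.305, adjusted p = 0.999731). The other 2 tested Bcl2l11 probes did not share the pattern, at -0.33 and -0.46 in DP and -0.82 and 0.35 in CD8 SP.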

How the results depend on the processing

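Over 29 alternatives, 6 of the 8 member calls were kept under every one, namely Bcl2 in CD4 SP against DP and Bcl2l1 in CD4 SP and CD8 SP against DP in both genotypes. Their sizes moved with the setting, from 1.08 to 2.54 for Bcl2 in wt CD4 SP minus DP and from -2.57 to -1.14 for Bcl2l1 in wt CD8 SP minus DP. The calls between cKO CD4 SP and cKO CD8 SP went from 2 to 0 under median scaling and when only the groups compared were fitted, and were 1 to 3 when 1 array was left out. For wt CD4 SP against wt CD8 SP, 0 calls became 2 with normexp, 3 with the authors' values, 3 with a trended robust variance, and 1 each without a filter, with a strict filter, with the mean of a gene's probes and with genotype and number as a random block, and 0 to 1 when 1 array was left out. For wt CD8 SP against wt DP, 1 call became 2 under each of these 7 settings, through Bcl2, and was 1 to 2 when 1 array was left out. For cKO CD8 SP against cKO DP, 1 call became 3 with the authors' values, 2 with normexp, without a filter, with the mean of probes and with the trended robust variance, and was 1 to 2 when 1 array was left out. For CD4 SP against DP, 2 calls became 3, through Bcl2l11, with normexp, the authors' values, no filter and the trended robust variance in wt, and with the authors' values and the trended robust variance in cKO. The replicate block (the chip) changed no count, with 2 calls in wt CD4 SP against DP. Between genotypes 0 members were called under every alternative. Of 72 uncalled member differences, 10 were called under some alternative and 37 changed sign under some alternative, and the cause was not tested. Probes near background, those of Bad, Pmaip1 and the dimmer Bid probe, limit what can be read.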
